A study of Mus musculus with 12 samples.

Results

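The 41 genes described here encode transporters of the blood-brain barrier (BBB), chosen by gene symbol for what they carry. They are 1 glucose transporter, 14 amino acid transporters or subunits, 2 monocarboxylate transporters, 6 carriers of organic anions, thyroid hormone and prostaglandins, 4 vitamin and nucleoside transporters, 4 metal transporters, 2 fatty acid transporters, 6 ATP-binding cassette (ABC) efflux pumps and 2 phospholipid flippases. All 41 were listed in at least 1 of the deposited tables, out of 32419 genes, and 40 were listed in both; Slc38a5 was listed under OGD-R alone. The rule itself uses no measured value, although the list was drawn up with earlier results of these data known.

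RNA-seq was performed on primary brain endothelial cells (BECs) from C57BL/6 mice (a C57BL/6J background in the methods) that carried or lacked the cortistatin gene (Cort+/+ and Cort-/-), with each replicate pooled from 3 mice, 8 weeks old. Cultures were kept in normoxia and normoglycemia (NX/NG, 21% O2 and 5.5 mM glucose, 24 h) or were deprived of oxygen and glucose (1% O2, no glucose or serum, 4 h) and then reoxygenated for 20 h (OGD-R). Each environment had 3 Cort+/+ and 2 Cort-/- libraries, and 2 further Cort-/- samples that the labels list (replicate 3 in NX/NG, replicate 2 in OGD-R) were not analysed here. Cortistatin was absent from every cell of the Cort-/- mice, not from endothelium alone, and the labels name a stroke model (MCAO) for all samples although the methods describe cultured cells.

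The brain endothelium is sealed by tight junctions, so polar nutrients cross it on carriers. Slc2a1 (GLUT1) supplies the brain with glucose, and Slc7a5 pairs with Slc3a2 to carry large neutral amino acids. Pumps of the ABC family, above all P-glycoprotein (Abcb1a and Abcb1b in mice) and Abcg2, return lipophilic compounds to the blood, and the expression of several of these genes is known to be lost when brain endothelial cells are grown in culture.

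Between 12386048 and 12390428 reads could be recovered for each library. Endothelial genes were abundant in all 10 libraries, with Cdh5 at 443 to 740 RPKM (reads scaled to gene length in kilobases and to library size), Pecam1 at 152 to 255 RPKM and Cldn5 at 105 to 136 RPKM. Cort itself had 0 to 2 reads in any library, too few to check the genotypes. In 2 libraries, Cort+/+ OGD-R replicate 1 and Cort-/- OGD-R replicate 3, the ribosomal RNA gene Rn18s-rs5 took 0.0775% and 0.0951% of the reads, against 7.64% to 15.8% in the other 8. Summed levels of 8 epithelial genes were 71.7 RPKM in Cort+/+ NX/NG replicate 2 and 50.3 RPKM in Cort-/- OGD-R replicate 1, against 10.8 to 22.4 RPKM in the rest. Within the rest, Cort-/- NX/NG replicate 2 had the most Krt8, at 2.57 RPKM against 0.0749 to 0.443 RPKM. Values without 1 or more of these libraries are given beside several of the results. In such bulk samples, fewer cells of a type and less RNA per cell cannot be told apart, and p-values measure the spread between these pooled cultures.

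Transporter levels differed widely. Of the 41 genes, 28 reached at least 1 RPKM in every library, and 6 of these (Slc38a2, Slc2a1, Slc3a2, Slc6a6, Slc7a5 and Slco3a1) reached at least 10 RPKM in every library. Another 10 stayed under 1 RPKM in every library: Slco1a4, Slco1c1, Slco2b1, Slc22a8, Slc19a3, Slc1a1, Slc7a3, Slc38a3, Slc38a5 and Slc30a10. Slc38a5 and Slc30a10 never exceeded 3 reads. Several of these low genes, among them the organic anion carriers Slco1a4 and Slco1c1 and the organic anion transporter Slc22a8 (OAT3), are known as markers of BBB endothelium in the intact brain.

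**Figure D1:**
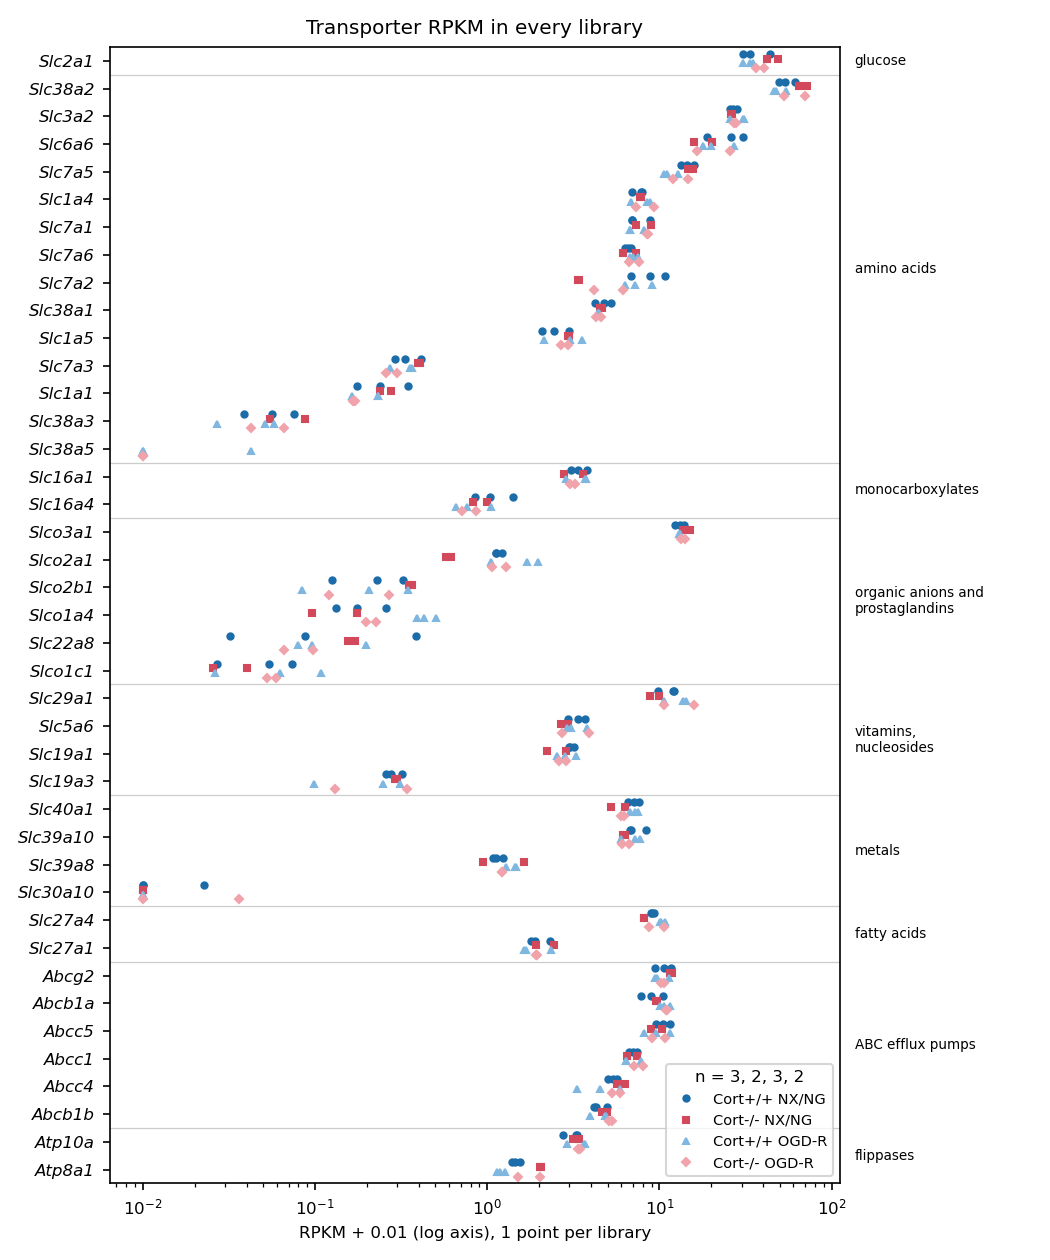
Levels of the 41 transporter genes in each of the 10 libraries, as deposited RPKM plus 0.01 on a logarithmic axis, with genes grouped by what they carry. Points of the 4 groups (3, 2, 3 and 2 libraries) lie close together for most genes, 28 genes lie at or above 1 RPKM in every library, and Slc38a5 has points under OGD-R alone.

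GLUT1, encoded by Slc2a1 (chromosome 4, 119108711 to 119137983, GRCm38), was the second most abundant of these genes by its median. It measured 33.3, 30.7 and 43.9 RPKM in Cort+/+ BECs under NX/NG, and 48.6 and 41.9 RPKM in Cort-/- BECs. Under OGD-R it measured 30.5, 33.5 and 35.0 RPKM in Cort+/+ and 40.3 and 36.6 RPKM in Cort-/- BECs. The genotypes overlapped under NX/NG, where Cort+/+ replicate 3 lay between the Cort-/- libraries, and did not overlap under OGD-R, where both Cort-/- libraries were the higher ones. Slc2a1 lies on the chromosome that carries Cort, 30.0 Mb away from it, and any part of the distance in the result was not tested.

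The most abundant transporter was Slc38a2, a sodium-coupled carrier of small neutral amino acids. It measured 49.6, 53.5 and 60.9 RPKM in Cort+/+ and 64.2 and 71.8 RPKM in Cort-/- BECs under NX/NG. After OGD-R the levels were 46.0, 47.4 and 54.4 RPKM in Cort+/+ and 70.2 and 52.9 RPKM in Cort-/- BECs. The Cort-/- libraries lay above all Cort+/+ libraries under NX/NG, whereas Cort-/- OGD-R replicate 3 lay within the Cort+/+ range. Among the other amino acid genes, Slc3a2 (the heavy chain shared by several carriers) ranged from 25.7 to 30.8 RPKM, Slc6a6 (the taurine transporter) from 15.9 to 30.4 RPKM and Slc7a1 (a cationic amino acid transporter) from 6.73 to 8.93 RPKM.

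The monocarboxylate transporter Slc16a1 (MCT1), which carries lactate and ketone bodies, lay between 2.77 and 3.76 RPKM in all libraries. Its values were 3.06, 3.35 and 3.76 RPKM in Cort+/+ and 3.57 and 2.77 RPKM in Cort-/- under NX/NG, and 2.86, 3.66 and 3.72 RPKM in Cort+/+ and 3.02 and 3.21 RPKM in Cort-/- under OGD-R. The groups overlapped in every comparison. Slc16a4, a related family member, was lower at 0.65 to 1.41 RPKM.

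Slco3a1, an organic anion transporter, was the only member of its role group above 2 RPKM. It measured 12.2, 13.2 and 13.9 RPKM in Cort+/+ and 15.0 and 13.7 RPKM in Cort-/- under NX/NG, and 13.1, 13.1 and 13.1 RPKM in Cort+/+ and 14.1 and 13.2 RPKM in Cort-/- under OGD-R. Its Cort-/- values were above all Cort+/+ values under OGD-R alone. Slc29a1 (ENT1), an equilibrative nucleoside transporter, measured 12.1, 11.9 and 9.80 RPKM in Cort+/+ and 8.75 and 9.99 RPKM in Cort-/- under NX/NG, and 13.8, 14.3 and 10.6 RPKM in Cort+/+ and 10.7 and 15.8 RPKM in Cort-/- under OGD-R. Genotypes overlapped in both environments. The zinc importer Slc39a10 measured 8.36, 6.82 and 6.70 RPKM in Cort+/+ and 6.10 and 6.26 RPKM in Cort-/- under NX/NG, with 7.16, 5.97 and 7.74 RPKM in Cort+/+ and 6.63 and 6.02 RPKM in Cort-/- under OGD-R. Both Cort-/- values were lowest under NX/NG, and genotypes overlapped under OGD-R.

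The 6 ABC pumps measured 3.31 to 11.8 RPKM over all libraries, the highest value being that of Abcg2. Abcb1a exceeded Abcb1b in every library, by a ratio of RPKM of 1.81 to 2.90. The 2 genes are near-identical in part, since 18.8% of the 40-base words of the annotated Abcb1a transcripts also occur in Abcb1b, so the share of each is uncertain. Of the flippases, which move phospholipids between membrane leaflets, Atp10a measured 2.73, 3.28 and 3.32 RPKM in Cort+/+ and 3.41 and 3.13 RPKM in Cort-/- under NX/NG, and 3.70, 2.90 and 3.62 RPKM in Cort+/+ and 3.37 and 3.45 RPKM in Cort-/- under OGD-R, with overlap in both environments.

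To show the regions in front of genes whose levels are compared next, the 250 bases upstream of the RefSeq start (GRCm38.p6) are printed 5′ to 3′ for Slc2a1, which is central to a glucose-deprivation design, and for Atp8a1 and Slc38a2, the genes higher in Cort-/- BECs under NX/NG at an unadjusted p under 0.05. They lie at chr4:119108495-119108744 (plus strand), chr5:67847432-67847681 (minus strand) and chr15:96699729-96699978 (minus strand). GENCODE vM21 begins Slc2a1 within the last bases of its window. Capitals mark matches, on either strand, to ACGTG, the core of hypoxia response elements, which is also contained in the E-box CACGTG, or to TGATGNAAN, a composite C/EBP-ATF site of amino acid response genes.
Slc2a1: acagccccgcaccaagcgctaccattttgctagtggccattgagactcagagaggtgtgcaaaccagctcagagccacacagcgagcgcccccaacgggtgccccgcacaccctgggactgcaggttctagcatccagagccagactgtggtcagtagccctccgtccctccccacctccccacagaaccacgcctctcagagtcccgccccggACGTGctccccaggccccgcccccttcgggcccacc
Atp8a1: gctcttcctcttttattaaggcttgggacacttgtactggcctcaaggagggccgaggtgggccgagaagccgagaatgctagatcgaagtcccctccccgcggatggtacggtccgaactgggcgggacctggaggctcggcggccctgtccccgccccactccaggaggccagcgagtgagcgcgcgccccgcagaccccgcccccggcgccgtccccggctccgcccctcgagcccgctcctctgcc
Slc38a2: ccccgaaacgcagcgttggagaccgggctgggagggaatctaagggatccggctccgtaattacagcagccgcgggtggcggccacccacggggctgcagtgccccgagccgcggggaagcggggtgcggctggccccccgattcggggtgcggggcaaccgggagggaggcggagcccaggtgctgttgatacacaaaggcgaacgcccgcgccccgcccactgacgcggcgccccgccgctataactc
One ACGTG was found in the Slc2a1 window, beginning 36 bases before the RefSeq start. It spans the GENCODE vM21 start of the gene at 119108711. No letters of either motif were found in the Atp8a1 and Slc38a2 windows. Over all 32851 promoters of the table, 16.6% held ACGTG and 3.44% held TGATGNAAN in this window. Entries existed for 31 of the 41 transporter genes, of which 12 had at least 1 window with ACGTG and 1 (Slco2a1) had TGATGNAAN. The Slco2a1 window is not shown, since it lies inside the gene as GENCODE vM21 annotates it. By window, 29.4% of 51 held ACGTG. A match is a description of letters and not a binding site.

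The first comparison asked whether cortistatin deficiency altered the transporters under NX/NG. By limma on log2(RPKM + 0.1), none of the 40 genes tested passed a false discovery rate (FDR) of 0.05, nor did any of all 29965 genes (0.0%). At an unadjusted limma p under 0.05, 2 of the 40 were higher in Cort-/- BECs (Atp8a1 and Slc38a2, against 3.56% of all genes) and 4 were lower (Slc7a2, Slco2a1, Slc40a1 and Slc27a4, against 4.82%). The median log2 fold change of the 40 was 0.041, beside -0.014 for all genes, and 28 of the 40 lay within 0.25 of 0. When the recovered reads were analysed by limma-voom, 124 genes passed, among them 2 transporters, Slc7a2 (FDR = 0.0159) and Slco2a1 (FDR = 0.0241). Slc7a2, Slco2a1 and Atp8a1 are coloured in a panel of transporters that the study drew from these libraries, so their counts are not independent evidence. In that panel, genes without a significant change are white. The study described the transporter network as lower and Atp8a1 as higher in Cort-/- BECs in both environments. It called genes under NX/NG at its own FDR threshold, where the limma fit here called none.

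The most different gene was Slc7a2 (chromosome 8, 40862396 to 40922308, GRCm38), a transporter of arginine and lysine. It measured 10.8, 6.84 and 8.82 RPKM in Cort+/+ and 3.39 and 3.34 RPKM in Cort-/- BECs (mean 8.83 ± 1.99, SD, n = 3, against 3.36 ± 0.0312, n = 2). Both Cort-/- libraries lay below every Cort+/+ library. The log2 fold change was -1.34 (SE 0.20, limma FDR = 0.202), and leaving out each library in turn gave -1.51 to -1.18. Slc7a1, which carries the same substrates, measured 6.90 to 8.78 RPKM in Cort+/+ and 7.34 and 8.93 RPKM in Cort-/-, so that the ratio of Slc7a2 to Slc7a1 was 0.779 to 1.57 in Cort+/+ and 0.379 and 0.455 in Cort-/- BECs.

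Slco2a1, the prostaglandin transporter, measured 1.20, 1.11 and 1.11 RPKM in Cort+/+ and 0.604 and 0.564 RPKM in Cort-/- BECs. The genotypes did not overlap, and the spread within each was small (mean 1.14 ± 0.0546, SD, n = 3, against 0.584 ± 0.0285, n = 2). The log2 fold change was -0.86 (SE 0.19, limma FDR = 0.343).

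Atp8a1, a flippase of aminophospholipids, measured 1.43, 1.38 and 1.55 RPKM in Cort+/+ and 2.04 and 2.01 RPKM in Cort-/- BECs. Both Cort-/- values were the higher ones, with a log2 fold change of 0.46 (SE 0.13, limma FDR = 0.464). Slc40a1 (ferroportin, the iron exporter) measured 6.58, 7.59 and 7.11 RPKM in Cort+/+ and 6.29 and 5.24 RPKM in Cort-/- BECs, again without overlap and lower in Cort-/-. Its log2 fold change was -0.30 (SE 0.11, limma FDR = 0.571), and it was -0.17 without Cort-/- replicate 2, with an unadjusted limma p of 0.209. The levels of Slc27a4 (FATP4, a fatty acid transport protein) were 9.23, 9.02 and 8.92 RPKM in Cort+/+ and 8.13 and 8.10 RPKM in Cort-/- BECs. This difference was small but free of overlap, at a log2 fold change of -0.16 (SE 0.052, limma FDR = 0.526). For Slc38a2 the log2 fold change was 0.32 (SE 0.11, limma FDR = 0.531), with 0.24 to 0.40 leaving out each library.

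For the glucose transporter, the large neutral amino acid carrier, MCT1 and the efflux pumps, intervals around 0 were obtained by limma. The log2 fold change was 0.34 for Slc2a1 (95% interval -0.099 to 0.79), 0.065 for Slc7a5 (-0.17 to 0.30) and -0.10 for Slc16a1 (-0.49 to 0.29). For the pumps it was 0.089 for Abcb1a (-0.24 to 0.42) and 0.15 for Abcg2 (-0.11 to 0.41), and for the scarce Slco1a4, an organic anion carrier, -0.31 (-1.23 to 0.61). Differences of the size measured for Slc7a2 lie outside all of these intervals. Differences within these intervals are not excluded with 3 and 2 libraries. Among the 31 transporters with at least 1 RPKM in 2 libraries, libraries of the genotypes did not overlap for 8 (25.8%; 2 higher and 6 lower in Cort-/-), against 32.7% of all such genes. No test of this difference was run.

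**Figure D2:**
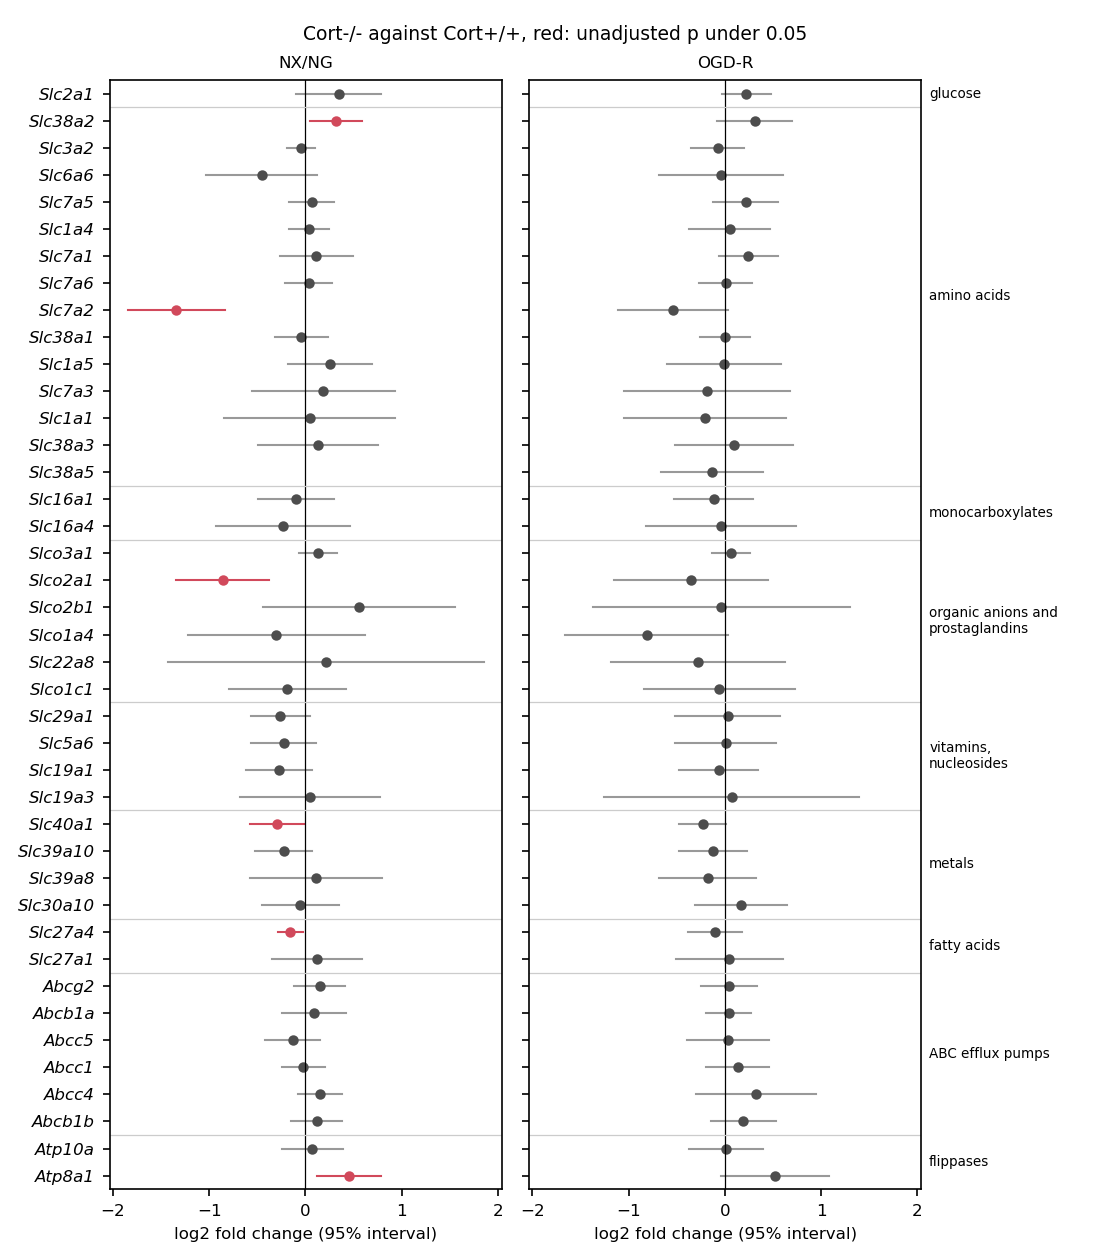
Log2 fold changes of Cort-/- over Cort+/+ BECs on the log2(RPKM + 0.1) scale, under NX/NG (left) and OGD-R (right), with limma 95% intervals as bars and genes at an unadjusted p under 0.05 in red. Under NX/NG 6 genes are red, with Slc7a2 at -1.34 and Slco2a1 at -0.86 farthest from 0, and under OGD-R none is red.

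Some genes of other cell types differed with the genotype as well. The summed level of 6 fibroblast markers was 193 to 279 RPKM in Cort+/+ and 83.6 and 121 RPKM in Cort-/- BECs under NX/NG, with 3 of 6 lower at an unadjusted limma p under 0.05 (Col1a1, Col1a2 and Col3a1 carry nearly all of it, and Lum and Pdgfra stayed under 1 RPKM). Of the fibroblast markers, Pdgfra went the other way from their sum, at 0.319 to 0.366 RPKM in Cort+/+ and 0.485 and 0.706 RPKM in Cort-/- BECs. For 8 pericyte and smooth muscle markers the sum overlapped, at 864 to 1103 RPKM against 808 and 917 RPKM. Of these 8, 3 were lower, and Kcnj8, Abcc9 and Vtn stayed under 1 RPKM throughout. Acta2 carries nearly all of this sum, at 844.5 to 1080 RPKM against 907 and 797 RPKM. Myh11 measured 1.21 to 1.56 RPKM against 2.11 and 1.42 RPKM. Other genes of this list were lower in Cort-/- BECs without overlap. Pdgfrb measured 12.1 to 13.5 RPKM in Cort+/+ and 5.17 and 7.66 RPKM in Cort-/- BECs. Cspg4 measured 3.555 to 4.135 RPKM against 0.679 and 1.36 RPKM, and Rgs5 1.83 to 3.53 RPKM against 1.46 and 1.06 RPKM. The sum of 10 endothelial markers was 1141 to 1424 RPKM in Cort+/+ and 1456 and 1590 RPKM in Cort-/-, with 1 of 10 higher. Leptomeningeal markers summed to 17.3 to 25.1 RPKM and to 11.8 and 15.0 RPKM, with 2 of 7 lower and 1 higher; Ptgds went the other way from the sum, at 1.34 to 2.13 RPKM in Cort+/+ and 2.55 and 4.06 RPKM in Cort-/- BECs. Markers of choroid plexus epithelium summed to 20.8 to 23.2 RPKM and to 18.5 and 18.9 RPKM, with 1 of 8 lower. Aqp1 measured 6.80 to 8.54 RPKM in Cort+/+ and 2.00 and 2.34 RPKM in Cort-/- BECs, and the median log2 fold change of that list was 0.063. Astrocyte markers summed to 1.35 to 1.63 RPKM in Cort+/+ and 1.97 and 2.70 RPKM in Cort-/- BECs, and those of macrophages and microglia to 2.60 to 3.15 RPKM and 3.84 and 4.06 RPKM. Both of these sums were low and higher in Cort-/- without overlap, though not every gene followed. Aldh1l1 carried nearly all of the astrocyte sum, at 1.19 to 1.52 RPKM in Cort+/+ and 1.94 and 2.58 RPKM in Cort-/-. Slc1a2 went the other way, at 0.0528 to 0.0932 RPKM against 0.0185 and 0.00599 RPKM. Cd68 measured 1.10 to 1.57 RPKM against 2.00 and 2.19 RPKM, while Csf1r overlapped at 1.14 to 1.71 RPKM and 1.67 and 1.57 RPKM. In each list 4 genes stayed under 1 RPKM. The part of these shifts in the levels of Slc7a2, Slco2a1 and the other transporters was not tested.

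**Figure D3:**
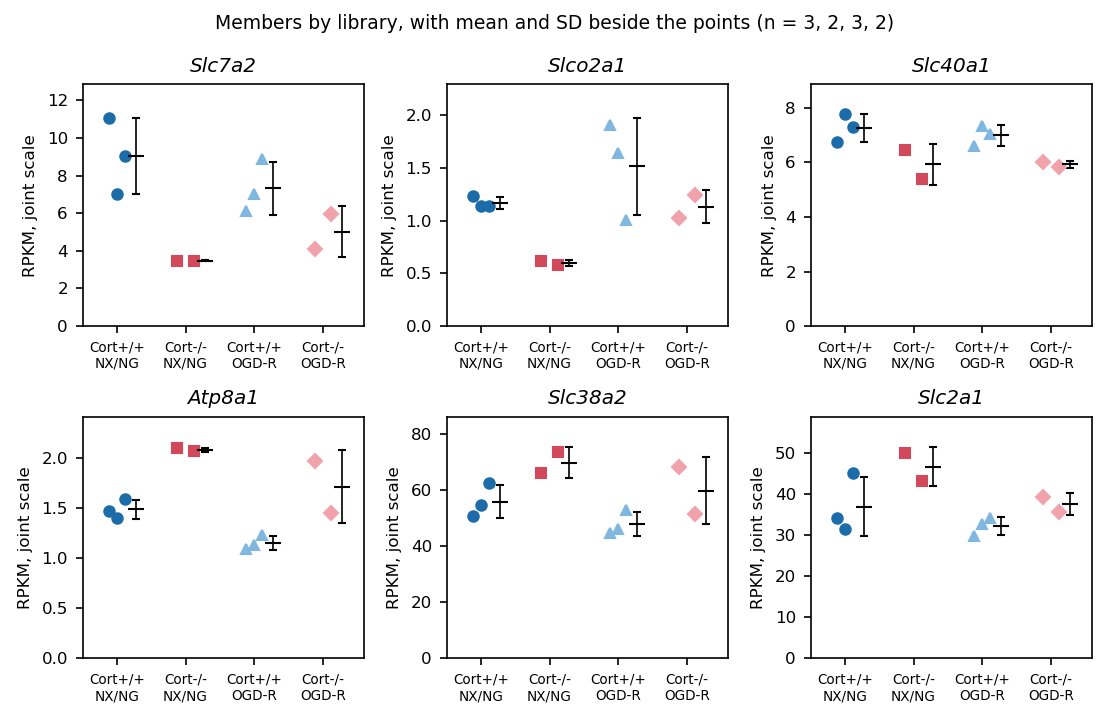
RPKM on a scale shared by all 10 libraries for Slc7a2, Slco2a1, Slc40a1, Atp8a1, Slc38a2 and Slc2a1, with 1 point per library and the mean and SD beside each group (3, 2, 3 and 2 libraries). For Slc7a2, the 2 Cort-/- libraries under NX/NG sit at 3.48 and 3.44, below the other 8, which lie at 4.07 to 11.1.

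After OGD-R, none of the 41 transporters differed between genotypes at an FDR of 0.05 by limma, and none of 29775 genes did (0.0%). None of the 41 had an unadjusted limma p under 0.05 either, against 1.72% of all genes higher and 1.71% lower. By limma-voom, 4 transporters had such a p, beside 1204 of 29775 genes. It called 5 genes, none of them a transporter. Without Cort+/+ replicate 1, low in ribosomal RNA, the count by limma was 3, beside 1267 of 28862 genes in that fit. The median log2 fold change of the 41 was 0.0063, beside -0.0089 for all genes.

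Slc7a2 under OGD-R measured 6.29, 7.18 and 9.10 RPKM in Cort+/+ and 4.18 and 6.14 RPKM in Cort-/- BECs. The Cort-/- libraries were again the lowest, by a narrow margin for replicate 3, and the log2 fold change was -0.54 (SE 0.23, limma FDR = 0.978). It was -0.93 without the 2 libraries low in ribosomal RNA and -0.82 without Cort-/- replicate 3 alone, and -0.27 without Cort-/- replicate 1. Slco2a1 measured 1.96, 1.68 and 1.04 RPKM in Cort+/+ and 1.05 and 1.28 RPKM in Cort-/-, with overlap. Atp8a1 measured 1.12, 1.17 and 1.26 RPKM in Cort+/+ and 2.02 and 1.49 RPKM in Cort-/- BECs. As under NX/NG, both Cort-/- values for Atp8a1 were above all Cort+/+ values (log2 fold change 0.52, SE 0.22, limma FDR = 0.978), at 0.69 without the 2 libraries low in ribosomal RNA and 0.31 without Cort-/- replicate 1. Slc40a1 measured 6.77, 7.53 and 7.21 RPKM in Cort+/+ and 6.18 and 6.00 RPKM in Cort-/-, lower in Cort-/- without overlap (log2 fold change -0.23, SE 0.097, limma FDR = 0.978), and -0.25 without the 2 libraries. Slc27a4 measured 10.2, 10.7 and 10.1 RPKM in Cort+/+ and 8.73 and 10.6 RPKM in Cort-/-, with overlap.

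Among the genes given in every comparison, the log2 fold change after OGD-R was 0.22 for Slc2a1 (95% interval -0.035 to 0.48), 0.21 for Slc7a5 (-0.12 to 0.55), -0.12 for Slc16a1 (-0.53 to 0.29) and -0.81 for Slco1a4 (-1.66 to 0.033). The pumps lay near 0, with 0.037 for Abcb1a (-0.20 to 0.27) and 0.043 for Abcg2 (-0.25 to 0.33). Libraries of the genotypes did not overlap for 8 of 30 transporters with at least 1 RPKM in 2 libraries (26.7%), against 16.2% of all such genes. Of these, Atp8a1, Slc2a1, Slc7a1, Abcb1b and Slco3a1 were higher and Slc7a2, Slc40a1 and Slc39a8 (a zinc and manganese importer) lower in Cort-/- BECs. Between the environments, which share no library for this comparison, the log2 fold changes of 28 of 40 transporters had the same sign (70.0%), beside 60.1% of 27321 genes tested in both. The same held for 22 of the 28 that reached 1 RPKM in every library (78.6%), beside 67.2% of 12220 such genes, and no test of these differences was run. Fibroblast markers summed to 231 to 342 RPKM in Cort+/+ and 200 and 252 RPKM in Cort-/- BECs under OGD-R, and endothelial markers to 1235 to 1342 RPKM and 1335 and 1620 RPKM. Their part in these values was not tested.

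The next comparisons asked how each genotype responded to OGD-R, on RPKM computed jointly from the recovered reads of all 10 libraries. In Cort+/+ BECs, no transporter of 40 passed an FDR of 0.05 by limma, whereas 9 of 27075 genes did (0.0332%). At an unadjusted limma p under 0.05, Slco1a4 was higher (1 of 40, against 3.01% of all genes) and Slc7a5 was lower after OGD-R (1 of 40, against 2.48%). The median log2 fold change was -0.11, beside -0.0094 for all genes, and 12 of the 40 were above 0, beside 47.5% of all genes. Without Cort+/+ OGD-R replicate 1, low in ribosomal RNA, the count was 5 of 40, beside 1821 of 26885 genes in that fit.

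Slc7a5 (LAT1), the light chain of the large neutral amino acid carrier, measured 14.8, 13.5 and 16.3 RPKM under NX/NG and 10.3, 10.7 and 12.5 RPKM after OGD-R in Cort+/+ BECs (mean 14.9 ± 1.36, SD, n = 3, against 11.2 ± 1.15, n = 3). All 3 OGD-R libraries lay below all 3 NX/NG libraries, with a log2 fold change of -0.41 (SE 0.10, limma FDR = 0.828). Leaving out each library in turn gave -0.50 to -0.35. Its partner Slc3a2 was within 26.5 to 28.9 RPKM under NX/NG and 25.1 to 30.0 RPKM after OGD-R, and the ratio of Slc7a5 to Slc3a2 was 0.469 to 0.613 under NX/NG and 0.343 to 0.497 after OGD-R, with Cort+/+ OGD-R replicate 3 inside the NX/NG range. In Cort-/- BECs Slc7a5 measured 16.2 and 15.0 RPKM under NX/NG and 14.2 and 11.7 RPKM after OGD-R, also without overlap, at a log2 fold change of -0.27 (SE 0.13, limma FDR = 0.922). This value was -0.13 without Cort-/- OGD-R replicate 3, low in ribosomal RNA, and -0.41 without replicate 1.

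Slco1a4 was scarce, at 9 to 21 reads in Cort+/+ libraries under NX/NG and 27 to 38 reads after OGD-R. It measured 0.169, 0.255 and 0.125 RPKM under NX/NG and 0.409, 0.369 and 0.483 RPKM after OGD-R in Cort+/+ BECs. Every OGD-R library was above every NX/NG library, with a log2 fold change of 0.90 on the log2(RPKM + 0.1) scale (SE 0.29, limma FDR = 0.881), and of 0.91 without OGD-R replicate 1. In Cort-/- BECs its values were 0.169 and 0.0884 RPKM under NX/NG and 0.181 and 0.212 RPKM after OGD-R, a difference carried by 7 to 19 reads per library. Of the 40-base words in its transcripts, 2.09% are shared with Slco1a5.

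In Cort-/- BECs, no transporter and none of 26523 genes passed an FDR of 0.05 by limma (0.0%) or by limma-voom. In simulated data with changed genes and these group sizes, the limma fit also called nothing. Its absence of calls therefore cannot show that no gene changed. At an unadjusted limma p under 0.05, Slco2a1 was higher (1 of 40, against 2.21%) and Abcg2 lower after OGD-R (1 of 40, against 1.87%). Leaving out any library here leaves 1 in its group, so no such counts are given. The median log2 fold change of the 40 was -0.041, beside -0.0036 for all genes. Slco2a1 measured 0.621 and 0.580 RPKM under NX/NG and 1.02 and 1.24 RPKM after OGD-R, without overlap, at a log2 fold change of 0.81 (SE 0.27, limma FDR = 0.922). Without OGD-R replicate 3, low in ribosomal RNA, it was 0.68, with an unadjusted limma p of 0.0746. Cort+/+ BECs had 1.23, 1.14 and 1.14 RPKM and 1.91, 1.64 and 1.01 RPKM, with overlap. The sum of fibroblast markers moved the same way as Slco2a1 in Cort-/- BECs, from 83.6 and 121 RPKM to 200 and 252 RPKM. These sums are in deposited RPKM, scaled separately for each environment, and not on the joint scale. The part of fibroblast markers in the Slco2a1 result was not tested.

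Abcg2 (breast cancer resistance protein) measured 12.1 and 11.8 RPKM under NX/NG and 9.95 and 10.4 RPKM after OGD-R in Cort-/- BECs, without overlap (log2 fold change -0.23, SE 0.082, limma FDR = 0.922), and -0.27 without OGD-R replicate 3. In Cort+/+ BECs it measured 9.60, 11.9 and 10.9 RPKM and 9.48, 11.1 and 9.12 RPKM, with overlap (log2 fold change -0.12, 95% interval -0.39 to 0.15). Abcb1a measured 7.99, 9.12 and 10.7 RPKM under NX/NG and 10.4, 9.77 and 11.2 RPKM after OGD-R in Cort+/+ BECs, and 9.88 and 9.79 RPKM and 10.8 and 10.7 RPKM in Cort-/- BECs. The Cort-/- libraries did not overlap between environments and the Cort+/+ libraries did. The log2 fold changes of Abcb1a were 0.18 (95% interval -0.10 to 0.46) in Cort+/+ and 0.12 (-0.095 to 0.34) in Cort-/- BECs.

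For Slc2a1 the response to OGD-R was -0.18 (95% interval -0.52 to 0.16) in Cort+/+ and -0.31 (-0.63 to 0.012) in Cort-/- BECs on the log2 scale. The first of these values was -0.027 without Cort+/+ NX/NG replicate 3, the highest of its group, and the second was -0.20 to -0.41 leaving out each library. For Slc16a1 it was -0.064 (-0.41 to 0.28) and -0.089 (-0.57 to 0.39), and for Slco1a4 in Cort-/- BECs 0.40 (-0.58 to 1.38). For Abcg2 in Cort-/- BECs the interval was -0.46 to -0.0086. The OGD-R and NX/NG libraries did not overlap for 4 of 31 transporters in Cort+/+ BECs (12.9%), against 12.7% of all genes with at least 1 RPKM in 2 libraries, and for 14 of 30 in Cort-/- BECs (46.7%), against 34.2%. In the former Slc27a4 was higher and Slc7a5, Atp8a1 and Slc38a1 (a neutral amino acid carrier) were lower after OGD-R.

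**Figure D4:**
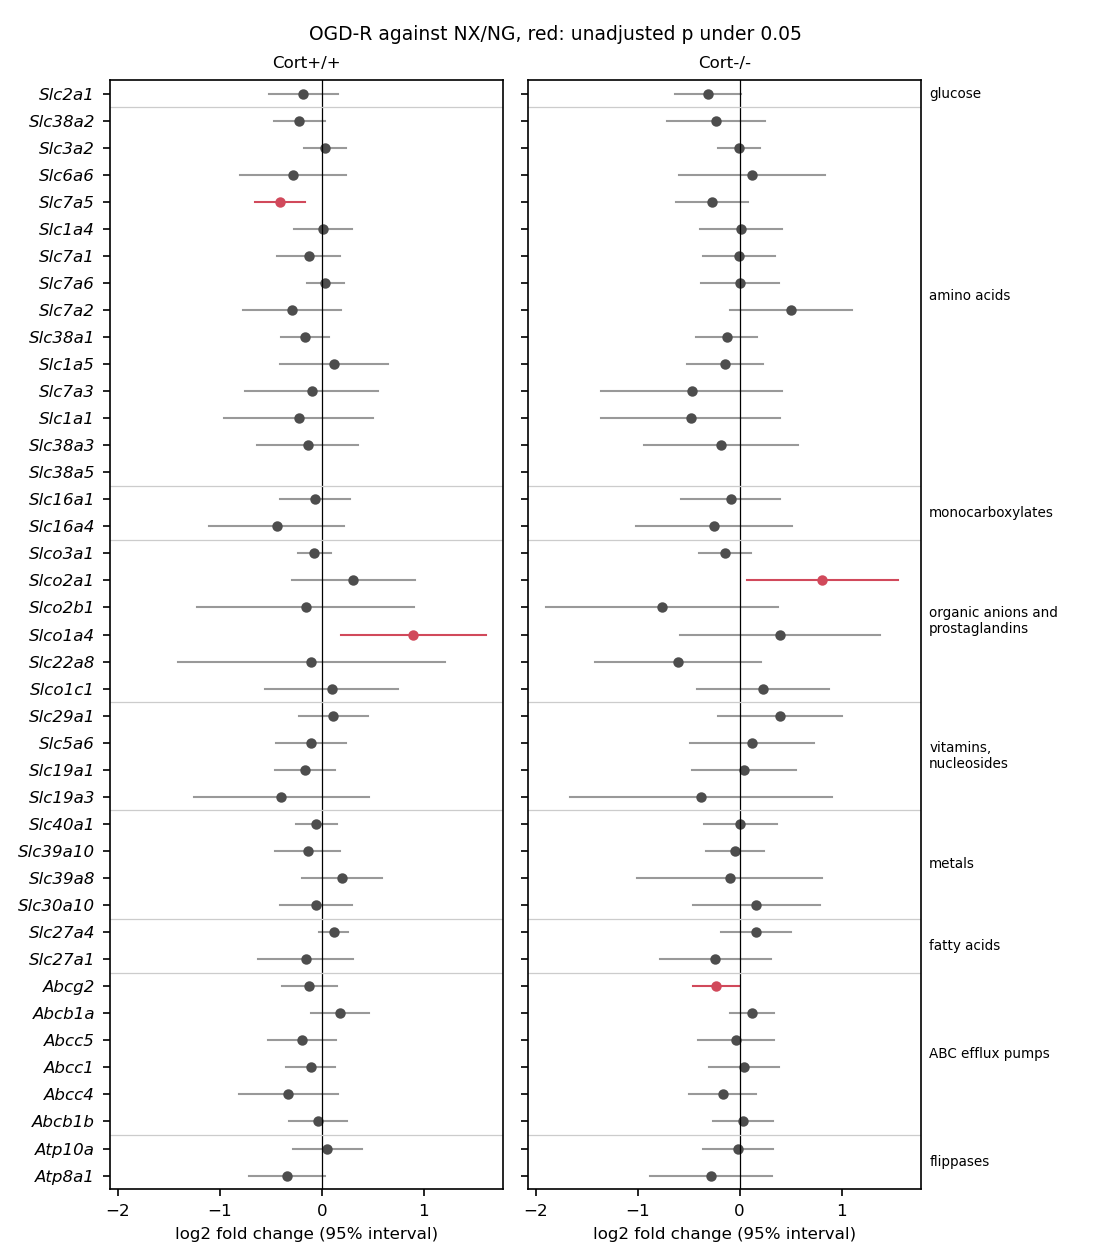
Log2 fold changes of OGD-R over NX/NG on the log2(RPKM + 0.1) scale in Cort+/+ (left) and Cort-/- BECs (right), with limma 95% intervals as bars and genes at an unadjusted p under 0.05 in red. Slc7a5 and Slco1a4 are red in Cort+/+ BECs, and Slco2a1 and Abcg2 in Cort-/- BECs.

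**Figure D5:**
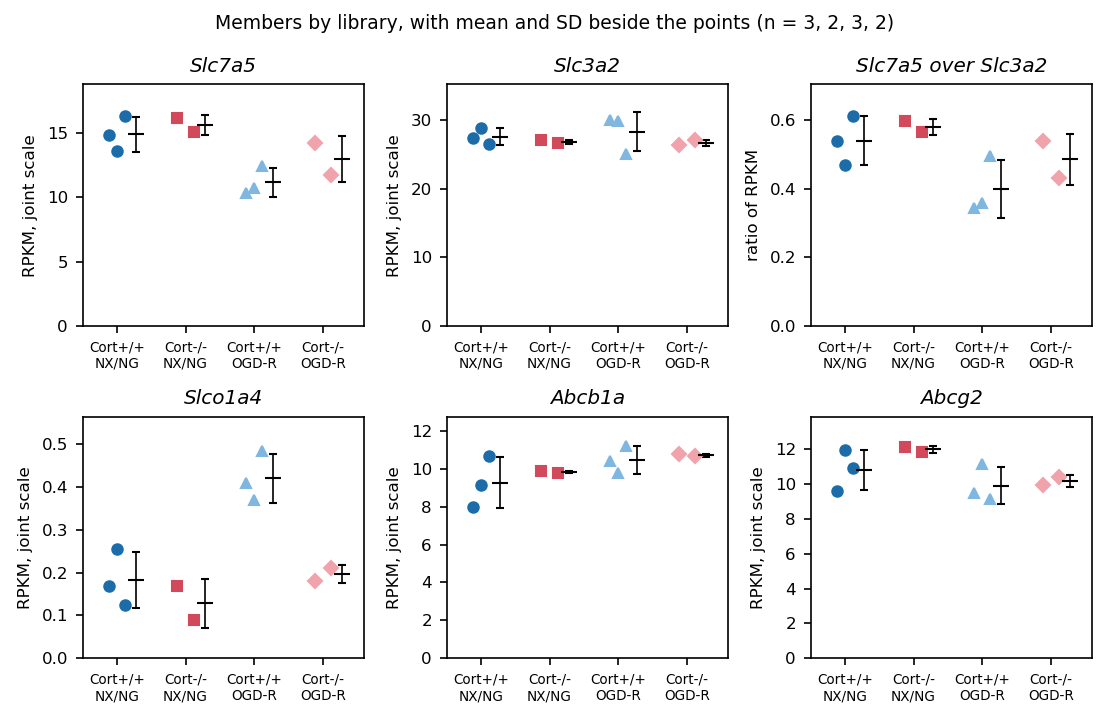
RPKM on a scale shared by all 10 libraries for Slc7a5, Slc3a2, Slco1a4, Abcb1a and Abcg2, and the ratio of Slc7a5 to Slc3a2, with 1 point per library and the mean and SD beside each group (3, 2, 3 and 2 libraries). Slco1a4 lies at 0.369 to 0.483 in the 3 Cort+/+ OGD-R libraries and at or below 0.255 in the other 7.

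Whether the response to OGD-R differed between genotypes was tested as an interaction. By limma, 3 of 27321 genes passed an FDR of 0.05 (0.011%) and no transporter did. At an unadjusted limma p under 0.05, 1 of 40 transporters had a positive interaction, Slc7a2 (against 1.69% of all genes), and none had a negative one (against 1.17%). The interaction of Slc7a2 was 0.79 on the log2 scale (SE 0.33, limma FDR = 1.00), and it was 0.40 without the 2 libraries low in ribosomal RNA, with an unadjusted limma p of 0.274. This interaction ranged from 0.52 to 1.06 leaving out each library. No transporter had an unadjusted limma p under 0.05 without Cort+/+ NX/NG replicate 1 or 3, or Cort+/+ OGD-R replicate 1 or 2. Slc7a2 measured a mean of 9.04 ± 2.04 RPKM (SD, n = 3) on the joint scale in Cort+/+ and 3.48 and 3.44 RPKM in Cort-/- BECs under NX/NG, and 6.13 to 8.86 RPKM and 4.07 and 5.98 RPKM after OGD-R. For the 6 genes given in every comparison the 95% intervals included 0: -0.13 for Slc2a1 (-0.61 to 0.36), 0.14 for Slc7a5 (-0.25 to 0.53) and -0.025 for Slc16a1 (-0.55 to 0.50). The others were -0.50 for Slco1a4 (-1.51 to 0.50), -0.058 for Abcb1a (-0.43 to 0.31) and -0.11 for Abcg2 (-0.47 to 0.25).

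A further list of 64 transport genes of the barrier was described in the same fits. Of those named here, Slco4a1, Slc22a17, Slc22a18, Slc38a4, Atp1b1, Atp2b4 and Lrp1 were shown by the study from these libraries and are not independent evidence. The whole list was drawn up with earlier results of these data known, so its counts beside all genes are not independent evidence either. None of the 64 passed an FDR of 0.05 by limma in any comparison. Under NX/NG, 5 of the 64 were higher and 12 lower in Cort-/- BECs at an unadjusted limma p under 0.05, against 3.56% and 4.82% of all genes, and under OGD-R 1 was higher and 3 were lower, against 1.72% and 1.71%. Slco4a1, an organic anion transporter, measured 5.24, 5.52 and 6.02 RPKM in Cort+/+ and 9.35 and 8.77 RPKM in Cort-/- under NX/NG, and 4.04, 4.03 and 3.42 RPKM in Cort+/+ and 6.84 and 6.61 RPKM in Cort-/- under OGD-R. It was higher in Cort-/- in both environments without overlap, at log2 fold changes of 0.69 (SE 0.083, limma FDR = 0.139) and 0.80 (SE 0.12, limma FDR = 0.360). Atp1b1, a subunit of the sodium pump, measured 10.8, 13.7 and 9.51 RPKM in Cort+/+ and 5.62 and 6.23 RPKM in Cort-/- under NX/NG, and 8.72 to 9.12 RPKM and 8.23 and 8.91 RPKM under OGD-R. The endocytic receptor Lrp1 measured 50.6, 50.5 and 36.6 RPKM in Cort+/+ and 27.2 and 20.2 RPKM in Cort-/- under NX/NG. The log2 fold changes under NX/NG were -0.91 for Atp1b1 and -0.95 for Lrp1 (limma FDR = 0.265 and 0.327), and -1.79 for Slc22a18, which stayed under 1 RPKM. Under OGD-R, Slc22a17 (-0.61), Atp2b4 (a plasma membrane calcium pump, -0.57) and the phosphate transporter Slc20a1 (-0.39) were lower in Cort-/- at that unadjusted p. After OGD-R in Cort+/+ BECs, 1 of the 64 was higher and 6 were lower, against 3.01% and 2.48% of all genes (Slco4a1 at -0.61, Slc20a1 at 0.45, Atp1b1 at -0.41 and Slc38a4 at -0.87), and in Cort-/- BECs 2 were higher and 1 lower, against 2.21% and 1.87% (Slco4a1 at -0.50, Atp1b1 at 0.45 and Lrp1 at 0.64). The interaction was positive for Atp1b1 (0.85) and Slc1a2 (0.84, under 0.1 RPKM throughout) at an unadjusted limma p under 0.05, 2 of 64 against 1.69% of all genes.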

How the data were processed

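The deposited RPKM values were made by the authors with their reanalyzerGSE pipeline, and the processing notes name edgeR. The aligner, genome build and annotation are not given in the sources used here; the labels and the methods differ on kit and read length. RPKM times gene length gave whole multiples of 1 step for 100% of values (tolerance 0.05), from which reads were recovered. Deposited columns of log2 fold change, logCPM, p-value and FDR hold the authors' own comparisons and were not used, nor were 10 category columns.

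limma 3.58.1 (R 4.3.3, moderated with a trend) was fitted to log2(RPKM + 0.1) over all genes with a value above 0, with Benjamini-Hochberg FDR. Both genotype comparisons used the deposited values of all mapped libraries; the comparisons of environments and the interaction used reads scaled jointly by the trimmed mean of M values. Tested on simulated data with these group sizes, the fit gave the right direction for every changed gene but missed most smaller changes, called more unchanged genes than the FDR allows, nearly all under 1 RPKM, and called nothing for the comparison of Cort-/- BECs across environments; with a filter of 1 RPKM in 2 libraries it called more changed and, where it had made calls, fewer unchanged genes. The transporter genes, the list of 64 genes and the 8 marker lists were chosen with earlier results of these data known. Named are genes with an unadjusted p under 0.05, the most abundant gene of each role, 6 genes in every comparison, and up to 4 of the 64 genes per comparison. Alternatives were another pseudocount, a filter, quantile normalization, limma-voom, other scalings, 1 fit of 4 groups, a replicate block and leaving out libraries. Recovered reads numbered 12386048 to 12390428 per library. These nearly equal totals need not be the sequencing depth, and the study reports a larger mean number of paired-end reads. Positions are from GENCODE vM21 and promoter sequences from RefSeq (GRCm38.p6); 39 of 51 windows held an annotated transcript start on the same strand. Python 3.11.15 and matplotlib 3.10.9 drew the figures.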

Additional observations from a re-analysis of the deposited data

How the results depend on the processing

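No transporter passed an FDR of 0.05 in any fit of log2(RPKM + pseudocount), the filtered fits included, and limma-voom called 2 (Slc7a2 at -1.36 and Slco2a1 at -0.96) in Cort-/- against Cort+/+ BECs under NX/NG. Over all genes, that comparison called 20 with a pseudocount of 1, 124 by limma-voom, 4 in a fit of all 4 groups, and 0 to 683 leaving out each library; under OGD-R the counts were 5 by limma-voom, 7 in the fit of 4 groups and 0 to 710. The high counts arose where 1 Cort-/- library was left, which was assumed to vary like the others. For OGD-R against NX/NG in Cort+/+ BECs, 9 genes became 5 with a pseudocount of 1, 1 by limma-voom, and 0 with the filter of 1 RPKM, the fit of 4 groups, the replicate block, without the 2 libraries low in ribosomal RNA, and without each library (0 to 0). For the interaction, 3 genes became 0 with a pseudocount of 1, the filter, limma-voom, the replicate block, without those 2 libraries and with a term for them (chosen after seeing the data), and 0 to 8 without each library. The cause was not tested. Of 510 alternative log2 fold changes of named transporters, 17 changed sign, all of genes with intervals around 0. Under NX/NG, leaving out libraries gave -0.012 to 0.19 for Abcb1a and -0.28 to 0.076 for Slc16a1. Under OGD-R, Abcb1a was -0.010 with the replicate block and -0.010 to 0.088 without each library, and Abcg2 was -0.018 without the 2 libraries low in ribosomal RNA and -0.013 to 0.13 without each. The response of Slc16a1 in Cort+/+ BECs was 0.055 without the 2 libraries and -0.13 to 0.055 without each, and in Cort-/- BECs -0.26 to 0.086. Its interaction was -0.20 to 0.15 without each library and 0.0030 with the term, and that of Abcb1a -0.16 to 0.043. For OGD-R against NX/NG in Cort+/+ BECs, 2 to 5 transporters had an unadjusted limma p under 0.05 leaving out each library, beside 1114 to 1821 genes. The other comparisons hold fits with 1 library in a group, and no transporter counts at that p are given for those fits. Deviations of same-numbered libraries from their group means had correlations of -0.502 to 0.16. In groups of 2 libraries the deviations mirror each other, so these correlations cannot show whether such libraries shared a pool. No transporter was called with the replicate block. Under NX/NG it gave Slc7a2 -1.33 and Slc2a1 0.50, the same values as without Cort+/+ replicate 3. That library has no analysed Cort-/- library of its number, so these values do not come from pairing alone. No block could be fitted in Cort-/- BECs across environments, where 1 number is shared. With 2 or 3 libraries per group, differences of any size within the intervals given are not excluded.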
